A study of Mus musculus with 34 samples.

Results

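The transcripts described here are 13 genes that were abundant in mouse zygotes and nearly gone from late 2-cell embryos. They were chosen on wild-type (WT) values: a mean of at least 50 FPKM in WT zygotes and at most 2 FPKM in WT late 2-cell embryos, where FPKM is the fragment count scaled to transcript length and to library size. Both limits were met by 14 of 49686 listed symbols, and 13 were kept after a fixed set of well-known oocyte genes, histones and ribosomal proteins had been left out by name. The gene left out was Pabpn1l, an oocyte poly(A)-binding protein gene, with mean levels of 64.8 FPKM in WT zygotes and 0.332 FPKM in WT late 2-cell embryos. Of all symbols, 2090 reached the zygote minimum, and 2076 of these stayed above the late 2-cell limit.

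All embryos came from zygotes injected with mRNA for CHK1, a kinase of the DNA damage checkpoint, either as WT or as the R442Q mutant. Zygotes numbered 5 with WT and 6 with R442Q mRNA, late 2-cell embryos 4 and 5, and blastocysts 7 and 7. Each library was 1 embryo freed of its zona pellucida. The labels list no inhibitor for the zygotes and late 2-cell embryos, whereas all 14 blastocysts had grown with a CHK1 inhibitor at 30 nM. No uninjected embryos were compared, the embryos still carried their own Chek1 gene, and mouse strain and hours of culture were not given in the sources used here.

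A mammalian egg stores messenger RNA made during oocyte growth and stops transcribing before it matures. These maternal transcripts are removed in waves, first by deadenylation with factors already in the egg, through adaptors such as BTG4 and the CCR4-NOT complex, and later by a route that needs transcription from the embryo's own genome. In the mouse, that genome is switched on in full at the 2-cell stage, and most maternal messages are lost around that time.

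The 13 members fell into 9 protein-coding genes and 4 noncoding ones in the reference annotation (GENCODE M21, GRCm38). The coding members were Gpr1, a G protein-coupled receptor for chemerin; Fetub, fetuin-B, a secreted protein that blocks the egg protease ovastacin and so keeps the zona pellucida from hardening early; Cmc4, a small mitochondrial protein with paired cysteine motifs; Ipcef1, which binds cytohesins, the exchange factors of ARF small G proteins; Pdzk1, a PDZ-domain scaffold under membrane transporters; Sertad3, a SERTA-domain regulator of transcription; Pramef20, of the PRAME family of germline-expressed leucine-rich repeat proteins; Fam90a1a; and Gm813, a coding gene known only by its number. The noncoding members were Gm36241, Gm43263, Gm7706 and the vault RNA Vaultrc5, a short RNA of the vault ribonucleoprotein particle.

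Oocytes control stored messages largely through the 3′ untranslated region (UTR), where cytoplasmic polyadenylation elements (CPEs) bind CPEB1. The transcripts were therefore searched on the sense strand for the CPE-like letters TTTTAT or TTTTAAT, and 4 of the 8 members with an annotated 3′ UTR held one. The matches in 3 of them are printed to show these letters in their context, and a match is not evidence that CPEB1 binds there. Each is 30 bases from the 3′ UTR, 5′ to 3′, with T for U and the motif in capitals, read from the GENCODE M21 transcripts.
Fam90a1a: tcagttgtcctaTTTTATgagcttttctat
Cmc4: ccctcaagcatgTTTTATttactgtccctc
Ipcef1: gccccaaacactTTTTATgagggctgattg

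The motif of Fam90a1a began 46 bases before the transcript's end, within the stretch where CPEs are known to act beside the poly(A) signal. The motif of Cmc4 lay farther away, at 177 bases, as did the one shown of 3 in Ipcef1, at 2493 bases. The last 40 bases held a poly(A) signal, AATAAA or ATTAAA, in 6 of the 8 members with a 3′ UTR. In Gm813, Fam90a1a and Sertad3 it began 23, 21 and 21 bases from the end, as the following windows show with the signal in capitals.
Gm813: gatgaaaAATAAAtctgttgtgcactataa
Fam90a1a: attttcaccAATAAAgttaccttagaaatt
Sertad3: tttttttctAATAAAagcattttggaaata

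The share of members with each motif was set beside that of the other zygote-abundant genes. A CPE-like motif anywhere in the 3′ UTR was found in 50% of the 8 members and in 63.4% of 1893 other genes with at least 50 FPKM in WT zygotes. In the last 100 bases the shares were 25.0% and 23.9%. The AU-rich pentamer ATTTA occurred in 5 of 8 members, 62.5%, against 67.2% of the other genes, and the poly(A) signal in 75.0% against 80.5%. The regions compared differ in length, since the median 3′ UTR was 352.5 bases in members and 752 bases in the others. The members' transcripts were also built of fewer pieces, with a median of 3 exons against 8, and were shorter, with a median length of 1329 against 2195 bases. Coding genes made up 69.2% of the members and 92.8% of the other zygote-abundant genes. These are descriptions of a short list, with no test.

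Total counts per zygote lay between 7183632 and 11296522, and per late 2-cell embryo between 5727956 and 8916343. Summed FPKM ranged from 712234 to 742246 in WT late 2-cell embryos and from 814376 to 976830 in R442Q late 2-cell embryos, so FPKM levels of the genotypes are not on quite the same scale at that stage. The injected gene, Chek1, ranged from 4123 to 9079 FPKM in WT and from 5290 to 6868 FPKM in R442Q zygotes, which overlapped, and these values do not separate injected from endogenous mRNA. Trophectoderm markers, 5 in all, set the blastocysts apart, with sums of at most 70.6 FPKM before that stage and at least 1183 FPKM in it. The 6 listed markers of the 2-cell activation burst summed to 81.0 to 223 FPKM in zygotes, 103 to 2739 FPKM in late 2-cell embryos and at most 3.99 FPKM in blastocysts, so zygotes and late 2-cell embryos overlapped. The 7 oocyte markers did not separate the stages, with 6314 to 7630 FPKM in zygotes and 1883 to 11037 FPKM in blastocysts. Zygotes and late 2-cell embryos were deposited as separate tables, so stage and table cannot be told apart. The levels are shares of a library, and a smaller share cannot be told apart from more RNA of other genes, nor, in whole blastocysts, fewer cells with a transcript from less of it per cell.

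The members differed in abundance at the start. Gpr1 had the highest mean in WT zygotes, 170 ± 26.5 FPKM (SD, n = 5), followed by Gm813 with 163 ± 22.4 and Cmc4 with 118 ± 13.2 FPKM. Gpr1 and Gm813 differed by less than their SD, and both stood above Cmc4 by more than it. Below Cmc4, Fam90a1a (84.5 ± 28.9), Gm36241 (83.5 ± 17.7), Pramef20 (83.3 ± 17.4) and Ipcef1 (81.2 ± 18.3) differed by less than their SD. Gm43263 (68.0 ± 32.3), Gm7706 (61.9 ± 16.2), Fetub (61.5 ± 11.5), Pdzk1 (60.2 ± 8.42) and Sertad3 (57.0 ± 6.11) lay nearest the lower limit. The genes just outside that limit were Gm47877 at 48.8 FPKM and Gm16497 at 46.6 FPKM. On the late 2-cell side, Ipcef1 at 1.997 and Fetub at 1.88 FPKM were just inside, and Gm48893 at 2.13 and Dnm3 at 2.20 FPKM just outside.

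Vaultrc5 owed its place to very few reads. In the 5 WT zygotes it was listed at 262, 50.1, 0, 0 and 0 FPKM, which came from 4, 1, 0, 0 and 0 counts on an RNA of 143 bases. Its R442Q zygotes ranged from 73.7 to 275 FPKM on 2 to 9 counts. It was too low for the count tests, which therefore cover 12 members.

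**Figure D1:**
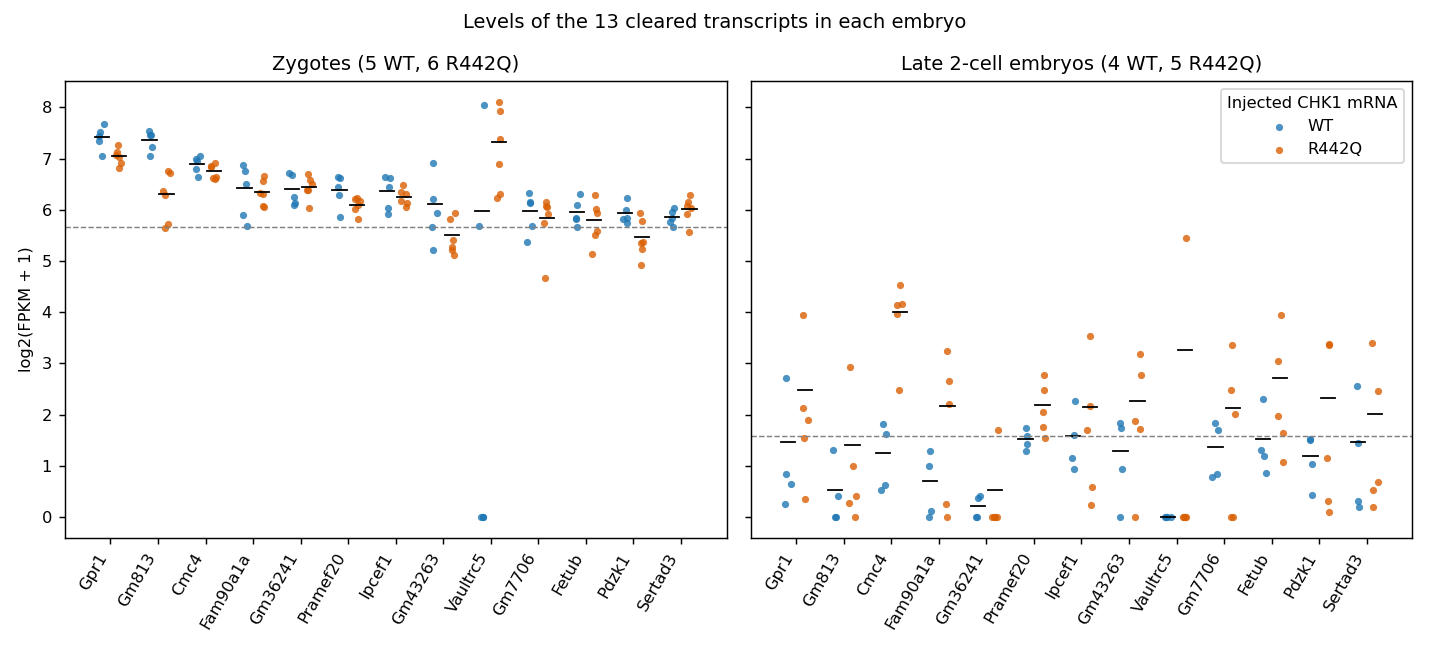
Level of each of the 13 transcripts in each zygote (left) and late 2-cell embryo (right), as log2(FPKM + 1), with 1 point per embryo, WT in blue and R442Q in orange; the black bars are group means of FPKM on the same scale and the dashed lines the limits of 50 and 2 FPKM that chose the genes. The late 2-cell points of Cmc4 do not overlap between genotypes (0.45 to 2.51 against 4.55 to 22.3 FPKM), while those of the other transcripts do.

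Whether the same transcripts were also lost from R442Q embryos was the comparison that the choice of members left free, since no R442Q value had been used. It was tested with edgeR's quasi-likelihood test, adjusted by Benjamini-Hochberg over 16199 genes. In R442Q embryos all 12 tested members were called lower at late 2-cell than in zygotes (edgeR adjusted p at most 0.05). Of all genes tested, 29.8% were called lower. The median log2 fold change was 0.22 over all genes and -4.34 for the 12 members. In WT embryos the difference was the rule itself, and 12 of 12 were called lower, beside 25.0% of all genes. The log2 fold changes there ran from -4.49 for Ipcef1 to -8.73 for Gm36241, with a median of -5.70.

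The deepest loss was that of the noncoding Gm36241 (chr5:149903197-149911114). Its R442Q zygotes had 64.4 to 103 FPKM with a median of 86.5, and its R442Q late 2-cell embryos 0, 0, 2.23, 0 and 0 FPKM. Only replicate 3 held any of it, with 6 counts. The log2 fold change was -7.87 (SE 0.66, adjusted p = 4.2e-10 in edgeR), at rank 33 from the lowest of all genes. Without late 2-cell replicate 3 it was -11.4, so its size rests on those few counts.

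Gm813 (chr16:58613675-58616978) came next. It had 49.2 to 107 FPKM in R442Q zygotes with a median of 79.5, and 0.33, 6.66, 0.99, 0 and 0.21 FPKM in R442Q late 2-cell embryos. No late 2-cell value came near the zygote range, and replicate 2 had the most transcript left. The log2 fold change was -5.86 (SE 0.68, adjusted p = 9.5e-08 in edgeR), and -7.83 without late 2-cell replicate 2.

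The receptor gene Gpr1 (chr1:63182691-63214543) went from 112 to 154 FPKM in R442Q zygotes, with a median of 131, to 14.4, 1.93, 3.37, 0.28 and 2.74 FPKM. Replicate 1 kept the most and replicate 4 the least. The log2 fold change was -4.94 (SE 0.67, adjusted p = 8.5e-07 in edgeR), and -6.145 without late 2-cell replicate 1.

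The PRAME-family gene Pramef20 (chr4:144372760-144377933) had 55.8 to 73.6 FPKM in R442Q zygotes, with a median of 69.5, and 1.91, 5.88, 2.39, 3.16 and 4.57 FPKM in late 2-cell embryos. Its log2 fold change was -4.43 (SE 0.29, adjusted p = 1.1e-11 in edgeR), the smallest standard error of the 12.

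Fam90a1a, Sertad3, Gm7706, Ipcef1, Pdzk1 and Gm43263 fell by log2 fold changes between -4.76 and -3.79. The 2 smallest falls were those of Fetub, -3.46 ± 0.48 (SE; edgeR adjusted p = 1.3e-06), and Cmc4, -3.15 ± 0.34 (SE; edgeR adjusted p = 3.3e-08). Fetub, the zona-protecting factor, had 34.1 to 77.7 FPKM in R442Q zygotes with a median of 53.6, and then 1.10, 7.24, 14.5, 2.13 and 2.94 FPKM. Cmc4 stood at rank 1215 from the lowest of the 16199 genes, so even the least reduced member was in the lower tail. Each of the 12 kept this call in all 24 alternative settings tried.

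**Figure D2:**
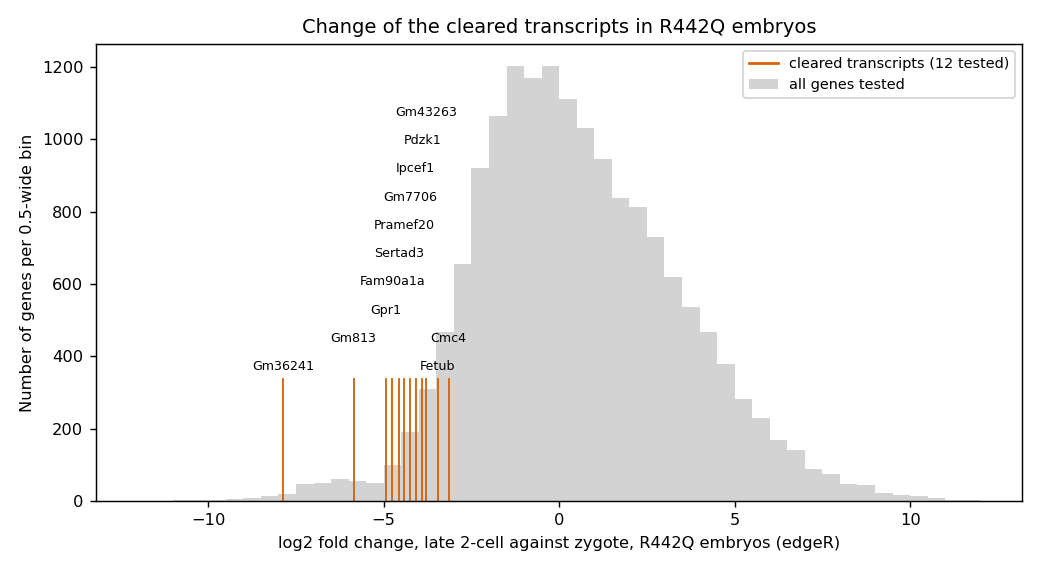
Log2 fold change from zygote to late 2-cell in R442Q embryos (edgeR) for all 16199 genes tested, as a grey histogram in bins of 0.5, with an orange line for each of the 12 tested transcripts. The lines run from -7.87 (Gm36241) to -3.15 (Cmc4), left of most genes, whose median is 0.22.

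In zygotes the members were compared between genotypes to see whether R442Q embryos began with the same store. Of 12 tested members, 1 was lower in R442Q and 0 were higher, against 13.2% of 12420 genes called in either direction and 6.92% called lower. The member was Gm813, with 175, 185, 131, 175 and 149 FPKM in WT zygotes and 49.2, 51.8, 107, 77.1, 81.9 and 104 FPKM in R442Q zygotes. The genotypes did not overlap, as was so with R442Q lower in 6.19% of all genes. The log2 fold change was -0.91 (SE 0.18, adjusted p = 0.00356 in edgeR). When both stages were fitted together it was -0.875 with an edgeR adjusted p of 0.51, and over all 17 alternatives, 16 of which kept the call, the adjusted p ranged from 1.17e-05 to 0.51. WT zygotes also served to choose the members by a high level, so the direction is partly set by the choice.

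For the other 11 the zygote difference did not pass the test. The log2 fold changes ran from -0.45 for Gm43263 to 0.30 for Sertad3, and 8 of the 12 were below 0, with a median of -0.09 against 0.01 for all genes. Gpr1 had 162, 182, 203, 131 and 174 FPKM in WT and 112 to 154 FPKM in R442Q zygotes, a log2 fold change of -0.26 (SE 0.12, adjusted p = 0.153 in edgeR), with overlapping groups. Cmc4 was close in both, with 99.3 to 131 FPKM in WT and 96.6 to 120 FPKM in R442Q zygotes. Its log2 fold change of -0.02 ± 0.13 (SE) changed sign in 5 of 17 alternatives.

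At the late 2-cell stage the question was how much of each transcript was left in R442Q embryos. By mean FPKM all 13 members were higher in R442Q than in WT embryos, and in R442Q embryos only Gm813 (1.64) and Gm36241 (0.446) had a mean at or below 2 FPKM. Of the 8 members abundant enough for the test, 0 passed it, against 4.18% of 13883 genes called, or 1.22% called higher in R442Q. At an unadjusted p under 0.05 there was 1 of the 8 and 2910 of all genes. Fitting both stages together called 2 members higher, where that fit called 5.83% of all genes higher and 9.65% lower. Limma on FPKM called 1 higher, against 1.86% of all genes higher and 2.74% lower. WT late 2-cell embryos had chosen the members by a low level. Leaving out any 1 R442Q embryo brought the members that passed the filter on low counts from 8 to 7, so some passed only through their R442Q embryos. Choice and filter both set part of the direction of these differences.

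Cmc4 (chrX:75404846-75416584) stood out among them. Its WT late 2-cell embryos had 2.51, 0.45, 0.55 and 2.06 FPKM, and its R442Q embryos 22.3, 14.7, 16.5, 4.55 and 17.0 FPKM. The genotypes did not overlap, which was so with R442Q higher for 4.25% of all genes, and Cmc4 was the only such member. The log2 fold change was 2.86 (SE 0.95, adjusted p = 0.10 in edgeR). It passed when both stages were fitted together, at 2.81 (edgeR adjusted p = 0.000122), and with limma on log2(FPKM + 1), at 2.71 (limma adjusted p = 0.0158), within a range of 0.000122 to 0.239 over 14 alternatives.

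Cmc4 overlaps the gene Mtcp1 on the same strand and shares 40.8% of its 50-base stretches with it, so reads of the pair could be divided either way. In late 2-cell embryos Mtcp1 had 13.96, 9, 0 and 10 counts in WT and 0, 0, 52.72, 0 and 0 in R442Q, beside 13.04, 1, 3 and 7 counts of Cmc4 in WT and 49, 41, 43.3, 22 and 56 in R442Q. WT embryos thus had most of the pair's counts under Mtcp1 in 3 of 4 embryos, and R442Q embryos under Cmc4 in 4 of 5. Summed over the 2 genes, the counts scaled to library total (CPM) were 4.37, 1.45, 0.463 and 2.89 in WT and 8.45, 7.16, 15.8, 3.68 and 6.28 in R442Q. The sums overlapped between WT replicate 1 and R442Q replicate 4. In zygotes Mtcp1 had at most 15.01 counts, beside 335 to 573 of Cmc4.

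Several of the other 7 tested members were uneven among R442Q embryos. Fam90a1a had 1, 0.08, 1.46 and 0 FPKM in WT and 3.59, 0.20, 8.51, 5.28 and 0 FPKM in R442Q late 2-cell embryos, so 2 of 5 R442Q embryos lay within the WT range. Its log2 fold change was 2.48 (SE 1.5, adjusted p = 0.372 in edgeR). Fetub had 3.91, 1.49, 1.28 and 0.82 FPKM in WT against the R442Q values given above, and a log2 fold change of 1.58 (SE 0.97, adjusted p = 0.38 in edgeR). Without R442Q replicate 3 it was 0.945. Pdzk1 was high in R442Q replicates 1 and 2, at 9.28 and 9.37 FPKM, and at 1.21 FPKM or less in the others, against 0.34 to 1.88 FPKM in WT.

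Sertad3 showed the same kind of split with different embryos. It had 9.52 and 4.52 FPKM in R442Q replicates 4 and 5 and at most 0.60 FPKM in the other R442Q embryos, while WT replicate 3 had 4.88 FPKM. Pramef20 ranged from 1.44 to 2.35 FPKM in WT and from 1.91 to 5.88 FPKM in R442Q, with a log2 fold change of 1.0 (SE 0.82, adjusted p = 0.532 in edgeR). In the joint fit of both stages it passed at 0.95 (edgeR adjusted p = 0.0406). Ipcef1 had the smallest difference, 0.31 ± 0.89 (SE; edgeR adjusted p = 0.884), which became -0.35 without R442Q replicate 1.

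The highest levels were spread over the R442Q embryos. As the rule kept WT late 2-cell levels low, the embryo with the highest level being R442Q is partly set by the choice, and the case of Vaultrc5 rests on 1 count. The embryo with the highest level was an R442Q embryo for each of the 13 members, namely replicate 1 for 4 of them, replicate 2 for 4, replicate 3 for 3, and replicates 4 and 5 for 1 each. From 7 to 8 members exceeded 2 FPKM in each R442Q embryo. In WT embryos it was 1 to 5, a number that the limit of 2 FPKM on the WT mean holds down. Summed over the members, WT embryos held 12.9 to 27.5 CPM and R442Q embryos 26.7 to 78.1 CPM, so R442Q replicate 5 lay just within the WT range. The same sums in zygotes were 934 to 1233 CPM in WT and 797 to 992 CPM in R442Q.

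Other gene lists were measured at the same stage, with FPKM sums subject to the difference in scale between genotypes. The 7 oocyte markers, all detected, summed to 2463 to 3170 FPKM in WT and 4129 to 6425 FPKM in R442Q late 2-cell embryos, with 1 of 7 called higher and 0 lower by edgeR, where 1.22% of all genes were called higher and 2.95% lower. The 19 listed markers of genome activation summed to 1548 to 4407 CPM in WT and 3811 to 6303 CPM in R442Q embryos, with 2 of 18 tested called higher and 1 lower beside those same shares of all genes. The 12 cumulus cell markers summed to 1.85 to 7.61 FPKM in WT and 2.45 to 23.7 FPKM in R442Q, with 4 of them at 0 in all 9 embryos, and the 6 sperm markers to 1.72 to 8.47 and 0.40 to 22.4 FPKM, with 2 at 0. The activation, cumulus and sperm sums overlapped between genotypes. Their part in the members' levels was not tested.

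The share of the zygote level that was left puts the members on one scale. For the 12 members with enough counts, the late 2-cell mean was 0.199% to 4.70% of the zygote mean CPM in WT, with a median of 1.97%, and 0.478% to 12.8% in R442Q, with a median of 5.51%. Cmc4 had 1.74% left in WT and 12.8% in R442Q, and the summed CPM of Cmc4 and Mtcp1 3.99% and 15.98%. Fetub had 3.36% and 10.7%. Ipcef1 had 4.70% and 6.66%, and Sertad3 3.17% and 4.72%. Single embryos carried much of these means: leaving out 1 late 2-cell embryo moved the share by over 1.5 times for 8 of 12 members in WT and 8 of 12 in R442Q. Cmc4 stayed between 11.88% and 14.2% in R442Q and was 1.07% in WT without replicate 1. Fetub was at 6.39% in R442Q without replicate 3 and at 2.08% in WT without replicate 1. Sertad3 was at 2.21% in R442Q without replicate 4 and at 1.26% in WT without replicate 3. Ipcef1 was at 4.45% in R442Q without replicate 1, below its 4.70% in WT. Gm36241 was at 0% in R442Q without replicate 3, below its 0.199% in WT.

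**Figure D3:**
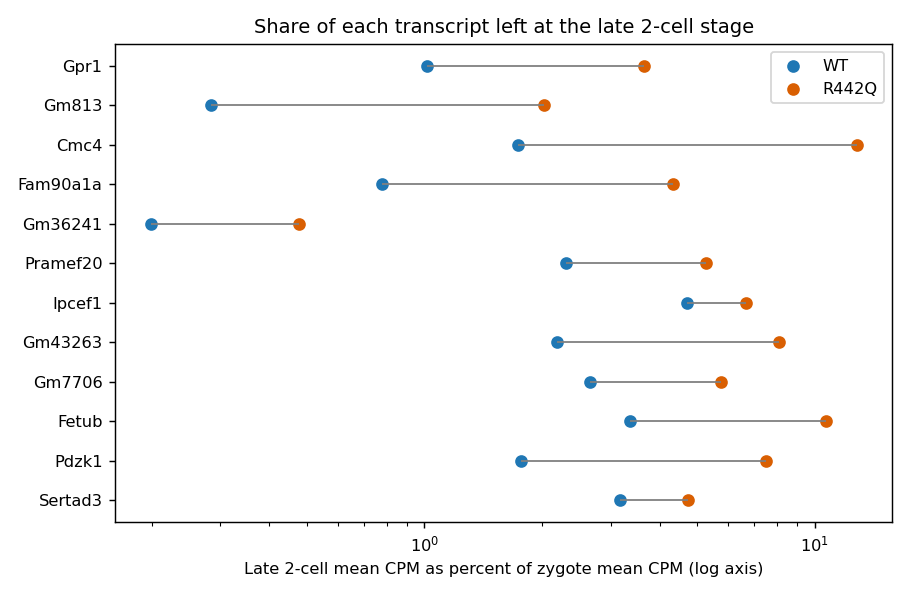
Late 2-cell mean CPM as a percent of the zygote mean CPM, on a log axis, for 12 transcripts in WT (blue) and R442Q (orange) embryos, with a grey line joining the genotypes. Each orange point lies right of its blue point, from 0.478% for Gm36241 to 12.8% for Cmc4; the WT embryos chose the transcripts.

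Whether the loss differed between genotypes was tested as the interaction of genotype and stage in edgeR. Of 12 members, 1 was called, in the direction of a smaller loss in R442Q, against 10.1% of 16199 genes called and 3.07% in that direction. It was Cmc4, at 2.80 ± 0.52 on the log2 scale (SE; edgeR adjusted p = 0.00145), which was called in all 24 alternatives with adjusted p-values from 1.13e-08 to 0.00755. The interaction uses the WT values that chose the members, as do the fits of those alternatives, so its direction is partly set by the choice. With a mean of 15.01 FPKM in R442Q late 2-cell embryos, Cmc4 would not have been chosen on R442Q embryos or on both genotypes. The value is that of Cmc4 alone, without the counts assigned to Mtcp1. Pramef20 missed the threshold at 1.08 ± 0.39 (SE; edgeR adjusted p = 0.0817), and 5 of 24 alternatives called it. Gm813 was not past the threshold at 2.63 ± 1.09 (SE; edgeR adjusted p = 0.128), and 2 of 24 alternatives called it. It moved with single embryos, to 0.755 without R442Q late 2-cell replicate 2. It was called without WT late 2-cell replicate 1, at 4.53 (edgeR adjusted p = 0.0391), and with DESeq2, at 2.87 (DESeq2 adjusted p = 0.029).

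All 12 interactions were above 0, with a median of 1.60 against -0.16 for all genes. This one-sidedness moved with the embryos used to choose the genes. A list that met the same zygote minimum with a late 2-cell limit of 5 FPKM in WT held 71 genes, of which 58, or 81.7%, had a higher mean CPM in R442Q late 2-cell embryos. With both limits applied to the mean of both genotypes, it was 30 of 45 genes, 66.7%, and with R442Q embryos alone 19 of 36, 52.8%; both lists were made after the data had been seen. All 1983 genes with at least 50 FPKM in zygotes of both genotypes together gave 58.9%. The interaction was called higher for 6 and lower for 0 genes of the WT-chosen list, and higher for 0 and lower for 6 genes of the R442Q-chosen list. For the list chosen on both genotypes it was higher for 0 and lower for 1 of 44 tested genes. Over all genes 3.07% were called higher and 7.05% lower.

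**Figure D4:**
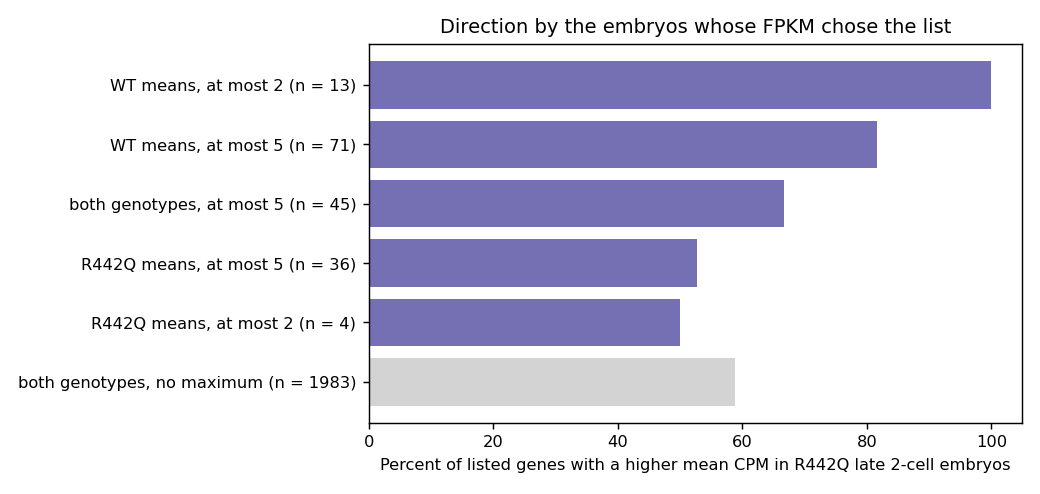
Percent of listed genes with a higher mean CPM in R442Q than in WT late 2-cell embryos, for lists chosen on WT, on R442Q or on both, with the late 2-cell limit in FPKM and the number of genes beside each bar. With a limit of 2 FPKM the percentage is 100 for the 13 members chosen on WT and 50 for 4 genes chosen on R442Q. With a limit of 5 FPKM it is 81.7 for 71 genes chosen on WT and 52.8 for 36 genes chosen on R442Q. It is 58.9 for all 1983 zygote-abundant genes (grey).

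Applying the original limits to R442Q embryos gave 4 genes, of which Gm813 and Gm36241 were members. The others were Afap1l2, with 54.8 FPKM in R442Q zygotes and 1.67 FPKM in R442Q late 2-cell embryos against 7.49 FPKM in WT late 2-cell embryos, and Lrch4, with 54.3 and 1.63 FPKM against 25.3 FPKM. Gm813 and Gm36241 thus met the definition in both genotypes.

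In blastocysts, which no part of the rule used, 11 of the 13 members were listed and their levels divided them. Gm813, Fam90a1a and Gm43263 were listed at 0 in all 14 embryos. Gpr1 was above 0 in 2 R442Q embryos (2.05 and 0.92 FPKM), Gm7706 in 2 R442Q embryos (0.29 and 2.41 FPKM) and Ipcef1 in 1 WT embryo (0.14 FPKM). Cmc4, Vaultrc5, Fetub, Pdzk1 and Sertad3 reached 1 FPKM in at least 7 embryos. For the short Vaultrc5, 1 count was listed as 50.1 FPKM in a WT zygote and 42.9 FPKM in an R442Q late 2-cell embryo. Its WT blastocysts, at 7.76 to 57.9 FPKM, may thus rest on very few reads, and no blastocyst counts were given. The scaffold gene Pdzk1 was detected in all 14, with a lowest, median and highest level of 7.40, 36.7 and 70.5 FPKM in WT and 2.23, 22.5 and 56.6 FPKM in R442Q. Its median in WT blastocysts was thus above each late 2-cell value of either genotype.

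Genotypes overlapped in blastocysts for each of these 5, and 0.416% of all tested genes did not overlap. With limma on log2(FPKM + 1), 0 of 5 tested members were called, against 0.00885% of 11297 genes, which is 1 gene. At an unadjusted p under 0.05 there were 0 of the 5 and 836 genes in all. Log2 fold changes of R442Q against WT were -0.78 ± 0.71 for Sertad3, -0.69 ± 0.66 for Pdzk1, 0.15 ± 0.62 for Fetub, 0.20 ± 0.40 for Vaultrc5 and 0.36 ± 0.61 for Cmc4 (SE), with limma adjusted p-values from 0.869 to 0.974. Sertad3 had 0.11, 9.90 and 22.7 FPKM (lowest, median, highest) in WT and 0.06, 2.90 and 16.8 FPKM in R442Q. Cmc4, with 0, 4.87 and 8.55 FPKM in WT and 0.66, 5.97 and 22.3 FPKM in R442Q, no longer separated the genotypes as it had in late 2-cell embryos.

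**Figure D5:**
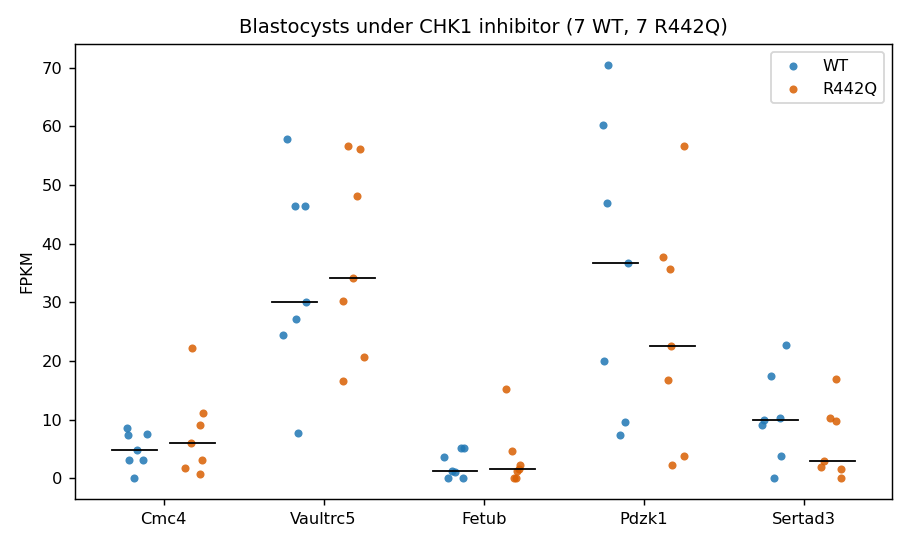
FPKM of the 5 transcripts that reached 1 FPKM in at least 7 of 14 blastocysts, all cultured with CHK1 inhibitor, with 1 point per embryo, WT in blue and R442Q in orange, and black bars at the group medians. The genotypes overlap for each transcript; the Pdzk1 medians are 36.7 (WT) and 22.5 FPKM (R442Q).

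The machinery that removes maternal messages was detected in both genotypes. Of 51 tested genes on the list of decay and deadenylation factors, 5 were higher and 9 lower in R442Q zygotes (6.3% and 6.92% of all genes), and 0 were higher and 1 lower in late 2-cell embryos (1.22% and 2.95% of all genes). Btg4, the adaptor that brings CCR4-NOT to maternal mRNA, was at 2363 ± 169 FPKM in WT (SD, n = 5) and 2635 ± 158 in R442Q zygotes (SD, n = 6), a log2 fold change of 0.29 (SE 0.08, adjusted p = 0.0173 in edgeR). The deadenylase gene Cnot6l was lower in R442Q zygotes, with a log2 fold change of -0.39 (edgeR adjusted p = 0.032), and Cnot8 higher, with 0.59 (edgeR adjusted p = 0.0143). Cpeb1, whose protein binds the CPE, was lower, at -0.82 ± 0.12 (SE; edgeR adjusted p = 0.000527). The one call in late 2-cell embryos was Tob2, another CCR4-NOT adaptor, at -1.70 ± 0.31 (SE; edgeR adjusted p = 0.0123). With both stages fitted together, 0 of 55 genes on the list were called in zygotes (Cpeb1 at -0.79, edgeR adjusted p = 0.237), and in late 2-cell embryos 1 was higher and 6 were lower, Tob2 among them, where that fit called 5.83% of all genes higher and 9.65% lower. The list is not limited to decay factors, so these counts are not those of decay factors alone. Among the 9 lower genes, Cpeb1 belongs to the control of stored messages. Another, Nfkbia (-0.74, edgeR adjusted p = 0.00208), is an inhibitor of NF-κB and not a decay factor.

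Some member values carry a limit from shared sequence or overlap. Pdzk1 shares 34.6% of its 50-base stretches with other genes, mainly Gpr89, and Gm43263 shares 31.5%, mainly with Gm45848, so part of their reads could belong to either. Antisense genes run across Gpr1, Ipcef1, Gm7706 and Pdzk1, and whether counting used strand is not given in the sources used here.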

How the data were processed

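Per the labels' protocols, cDNA of single embryos came from the SMART-seq2 protocol, and Nextera libraries cut by Tn5 were read on an Illumina HiSeq X-10. The deposited zygote and late 2-cell tables hold estimated counts per gene symbol, not normalised. The deposited FPKM tables, for 3 stages, hold values the authors had scaled for length of transcript and depth of library. RSEM and mm10 are named in the submitters' processing notes, with no role or version given.

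Rounded counts were fitted with edgeR 4.0.16 under R 4.3.3 (filterByExpr with a minimum count of 10, TMM scaling, quasi-likelihood test). Each stage was fitted alone for R442Q against WT. A model of the 4 zygote and late 2-cell groups gave the change between stages and the interaction. The SE beside an edgeR value was derived from the test, as the size of the log2 fold change divided by the square root of its F statistic. Blastocysts had only FPKM, so their depth is unknown in counts; they were tested with limma 3.58.1 on log2(FPKM + 1), with a variance trend, for genes of at least 1 FPKM in at least 7 embryos. Genes were called at 0.05 after Benjamini-Hochberg adjustment over all genes tested. CPM is the count scaled to the embryo's total.

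The members and gene lists were chosen with earlier results of these data known. The naming rule (the 10 highest members in WT zygotes, members called in each stage, the 6 highest in R442Q late 2-cell embryos and in blastocysts, 1 per role list and those nearest each limit) covered all 13. All 13 matched GENCODE M21 by symbol. The tests were checked on simulated data. No replicate pair had identical values. Embryos of the genotypes with the same replicate number in the labels' titles did not deviate together (correlations from -0.168 to 0.206). These numbers were therefore not used as pairs. The labels' descriptions number the WT zygotes and some late 2-cell embryos differently, and pairs by those numbers were not examined. Alternatives covered DESeq2 1.42.0, scaling, filters, the pseudocount, limits of the rule, a replicate block and leaving out each embryo. The labels call each library a single embryo and name no litters or donors, so p-values measure the spread between these embryos. No molecular identifiers are described, so limits from counts cover counting error only. Not every motif site is reported here.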

Additional observations from a re-analysis of the deposited data

Results flagged for a closer look

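Of 64 groups of 4 to 7 embryos examined member by member, 9 had 1 embryo far from the others. The usual rate of about 1 in 20 does not apply here. Where the other embryos are all at 0, any single value above 0 is flagged, whatever its level. The 9 groups are therefore not read as an excess. At the late 2-cell stage these were Gpr1 in WT replicate 3 (5.56 FPKM, the next 0.79) and in R442Q replicate 1 (14.42 FPKM, the next 3.37), Gm813 in R442Q replicate 2 (6.66 FPKM, the next 0.99), Gm36241 in R442Q replicate 3 (2.23 FPKM, the others 0) and Vaultrc5 in R442Q replicate 5 (42.94 FPKM from 1 count, the others 0). Vaultrc5 also had 262.05 FPKM in WT zygote replicate 1, with 50.11 FPKM in the next. In blastocysts Ipcef1 had 0.14 FPKM in WT replicate 5 and 0 in the others, Gm7706 2.41 FPKM in R442Q replicate 4 with 0.29 in the next, and Fetub 15.2 FPKM in R442Q replicate 7 with 4.72 in the next.

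The genotype effect on Cmc4 differed between the stages, by 2.8 on the log2 scale (edgeR adjusted p = 0.00145), from -0.02 in zygotes to 2.86 in late 2-cell embryos when each stage was fitted alone. The WT values that chose Cmc4 enter this difference, so its direction is partly set by the choice. Summed with Mtcp1, which shares its sequence, the late 2-cell values of the genotypes overlapped (0.463 to 4.37 CPM in WT and 3.68 to 15.8 CPM in R442Q).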

How the results depend on the processing

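The 12 falls in R442Q embryos held in all 24 fits tried, and the Cmc4 interaction in all 24. Fitting the stages together called 0 members in zygotes (1.22% of all genes higher and 0.451% lower) and 2, both higher, in late 2-cell embryos (5.83% and 9.65%). Limma on FPKM called 2 in zygotes, Vaultrc5 higher (0 to 4 counts in WT and 2 to 9 in R442Q) and Gm813 lower (3.47% and 10.4%), and 1 higher in late 2-cell embryos (1.86% and 2.74%). The interaction was called, in each case higher, for 3 members with DESeq2 (7.32% of all genes higher), 2 with RLE size factors (4.36%), and 1 to 3 when an embryo was left out (2.29% to 6.51%; 3 without WT late 2-cell replicate 1, 3.26%, or replicate 3, 3.49%). DESeq2 gave only 2 late 2-cell members an adjusted p. The replicate block used the replicate numbers of the labels' titles. It left the calls at 1 in zygotes, 0 in late 2-cell embryos, 12 for the R442Q change, 1 for the interaction and 0 in blastocysts.

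Other limits of the rule changed the number of members: 104 with a zygote minimum of 20 FPKM, 3 with 100, 4 with a late 2-cell limit of 1, 71 with 5, 4 chosen on R442Q, 2 on both genotypes, and, added after seeing the data, 45 on both and 36 on R442Q with a limit of 5. Calls in zygotes were then 17 of 97 tested, 16 of them lower in R442Q (minimum 20), 10 of 70, all lower (limit 5), 6 of 44, all lower (both, limit 5), and 5 of 36, 3 of them lower (R442Q, limit 5), beside 6.3% of all genes higher and 6.92% lower. In late 2-cell embryos they were 1 of 2 (R442Q) and 3 of 29 (R442Q, limit 5), all lower in R442Q, beside 2.95% of all genes. For the R442Q change they were 3 of 3 (limit 1), 69 of 70 (limit 5) and 2 of 2 (both), all lower, beside 29.8%. For the interaction they were 0 of 3 (limit 1), 6 of 70, higher (limit 5), 0 of 2 (both), 1 of 44, lower (both, limit 5), and 6 of 36, lower (R442Q, limit 5), beside 3.07% higher and 7.05% lower.

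Several uncalled differences changed sign (log2). In zygotes Cmc4 was 0.009 in the joint fit, 0.025 with the replicate block and -0.085 to 0.021 with 1 embryo left out. Fetub was 0.019, 0.002 and -0.139 to 0.084 in the same settings. Fam90a1a was -0.017 and Gm7706 -0.166 with limma, and with 1 embryo left out they ran from -0.074 to 0.178 and from -0.051 to 0.263. Leaving out embryos moved Ipcef1 in late 2-cell embryos from -0.353 (without R442Q replicate 1) to 0.633. Interactions ran from -2.595 (without R442Q late 2-cell replicate 3) to 1.403 for Gm36241, from -0.163 (without R442Q late 2-cell replicate 1) to 0.881 for Ipcef1 and from -0.348 (without R442Q late 2-cell replicate 4) to 1.968 for Sertad3. In blastocysts the ranges were -0.020 to 0.680 for Cmc4, -0.102 to 0.366 for Vaultrc5 and -0.263 (without R442Q replicate 7) to 0.407 for Fetub. The cause was not tested. A count of 0 in a late 2-cell embryo allows up to 0.337 to 0.524 CPM (3 counts), for counting error only.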

Other observations

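Ipcef1, the cytohesin partner, showed a different ratio of counts to FPKM at the 2 stages. The transcript length implied by each pair of values had a median of 1.36 kb in zygotes (1.17 to 1.73 kb, 11 embryos) and 2.76 kb in late 2-cell embryos (1.41 to 6.18 kb, the 8 embryos with at least 10 counts). Its FPKM therefore differed more between the stages than its counts did. For Pramef20 the same lengths were 1.27 kb and 1.28 kb. Those of Cmc4 were 0.451 to 0.503 kb in zygotes and 0.37 to 0.84 kb in 6 late 2-cell embryos. Those of Pdzk1 were 1.47 to 1.767 kb in zygotes and 0.876 to 2.229 kb in 4 late 2-cell embryos. The late 2-cell means of Cmc4 were 1.39 FPKM in WT and 15.01 FPKM in R442Q, but 0.977 and 6.54 CPM, so the genotypes lay farther apart in FPKM.

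Gm45848, the noncoding gene that shares sequence with Gm43263, had 0.58 to 4.53 FPKM in WT and 4.23 to 9.86 FPKM in R442Q late 2-cell embryos, or 1.84 ± 0.75 (SE) on the log2 scale, which missed the threshold (edgeR adjusted p = 0.175). In blastocysts it was at most 2.33 FPKM.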
